A study of Mus musculus with 32 samples.

Results

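A set of 10 genes of the heat shock chaperone system were followed through the libraries of mouse glia: Hspa1a, Hspa1b, Hspa8, Hsp90aa1, Hsp90ab1, Hspb1, Hsph1, Dnajb1, Bag3 and Hsf1. They were taken by name, with no measured value in the rule, although earlier results of these data were known when they were chosen. They are 10 of the 55291 genes in the astrocyte and oligodendrocyte tables, 53700 in the microglia table and 17572 in the culture table. All 10 were found in each of the 4 count tables and all 10 passed the filter on low counts in each.

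The mice carried TDP-43_Q331K, a disease variant of TDP-43, which binds RNA, that serves as a model of amyotrophic lateral sclerosis. Astrocytes selected for the surface antigen ACSA2 came from cortices plus spinal cords at 3 months (4 libraries), 6 months (5 libraries) and 10 months (2 libraries), and O4-selected oligodendrocyte lineage cells from these tissues were collected at 3 and at 6 months (4 libraries each). Cd11b-selected microglia came from cortices alone at 3 months (3 libraries) and 10 months (4 libraries). Primary TDP-43_Q331K astrocytes kept for 14 days were replated and then given vehicle (3 libraries) or 40 µM Omomyc for 48 h (3 libraries). Omomyc is a miniprotein that inhibits the transcription factor MYC. The transgene was common to every group, including the vehicle controls, and age alone and age with the transgene cannot be told apart because mice without it were not analysed here. The labels name neither the promoter of the transgene nor whether animals were pooled. The labels do not say whether the libraries of a group came from separate animals, so p-values measure only the spread between the libraries.

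Heat shock proteins are chaperones that bind unfolded or aggregating proteins. HSP70 proteins (Hspa1a, Hspa1b, Hspa8) work in an ATP cycle that J-domain proteins such as Dnajb1 start and exchange factors such as Hsph1 and Bag3 end, and they pass some clients on to HSP90 (Hsp90aa1, Hsp90ab1). Under stress the transcription factor HSF1 is released from chaperones, forms trimers and binds heat shock elements, inverted repeats of the unit GAA, in front of the inducible genes. In glia these genes are known to respond to heat, protein aggregation and the handling of tissue, whereas Hspa8 and Hsp90ab1 are abundant in unstressed cells.

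The sequences upstream of Hspa1a and Hspa1b are shown because the genes are a near-identical pair and neither can be read without the other. RefSeq (GRCm38.p6) places the 250 bases before the start of Hspa1a at chr17:34972157-34972406 and those of Hspa1b at chr17:34959239-34959488, both on the minus strand. Capitals mark matches to a pair of facing units, GAANNTTC or TTCNNGAA, each of which reads the same on both strands.
Hspa1a: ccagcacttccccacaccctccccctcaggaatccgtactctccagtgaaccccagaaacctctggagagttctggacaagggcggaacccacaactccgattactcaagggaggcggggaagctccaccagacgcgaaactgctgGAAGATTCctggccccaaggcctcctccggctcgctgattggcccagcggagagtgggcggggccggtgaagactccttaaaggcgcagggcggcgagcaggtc
Hspa1b: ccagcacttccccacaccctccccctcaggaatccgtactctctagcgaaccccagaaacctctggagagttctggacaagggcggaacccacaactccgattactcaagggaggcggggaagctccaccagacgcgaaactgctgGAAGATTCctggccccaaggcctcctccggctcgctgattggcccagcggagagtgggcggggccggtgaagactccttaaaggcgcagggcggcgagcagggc
Of the 250 bases compared, 247 (98.8%) were identical. The 3 differences, with the Hspa1a base first and positions counted from 1 at the 5′ end, were C44T, T47C and T249G. The match GAAGATTC starts at position -104 in both, where position 0 is the annotated first base.

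A further 2 stretches are shown because Hspb1 and Hsph1 changed in the comparisons below. The Hspb1 stretch lies at chr5:135887794-135887843 on the plus strand and the Hsph1 stretch at chr5:149636351-149636380 on the minus strand.
Hspb1: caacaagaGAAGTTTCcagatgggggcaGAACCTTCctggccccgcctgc
Hsph1: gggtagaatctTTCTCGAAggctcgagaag
Hspb1 holds a match at -117 and another at -97, and Hsph1, counted from the first of its 2 listed starts, holds one at -33. Hsph1 also holds the 3-unit match TTCTGGAAAGTTC just after the start, at position 36. In windows of 250 bases before and 50 after the start, Bag3 had a match only after the start, at position 42, and Dnajb1 had none in either of its 2 listed promoters. Of 32851 promoters of the same length in the RefSeq table, 15.1% held a pair of units and 0.603% held 3 units (GAANNTTCNNGAA or TTCNNGAANNTTC). A match is a description of the letters, not a binding site. Hspa8, Hsp90aa1, Hsp90ab1 and Hsf1 have no entry in the promoter table used.

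Hspa1a and Hspa1b also share coding sequence, which bears on every value below. In GENCODE vM21 (GRCm38) both are single-exon genes on the minus strand of chromosome 17, Hspa1a at 34969190 to 34972156 and Hspa1b at 34956436 to 34959238. Of the stretches of 100 bases in the Hspa1a transcript, 47.1% also occur in Hspa1b, and 49.9% of those in Hspa1b occur in Hspa1a. In the last 300 bases, which a 3′ end kit reads, neither shared any stretch with another gene. Hspa1a held 20.4 to 34.5% of the summed reads of the pair in astrocyte and oligodendrocyte libraries, 43.2 to 60.9% in microglia and 44.6 to 51.5% in culture. How reads that match both were counted was not given in the sources used here, so the sum of the pair is given beside each gene. Transcripts of other annotated genes share 47.5% of the 100-base stretches of Hsp90aa1, 42.7% of those of Hspb1 and 31.6% of those of Hspa8, and the levels of these 3 genes are uncertain to that extent. Hsp90ab1, Hsph1, Dnajb1, Bag3 and Hsf1 shared none.

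Total counts per library were 6151583 to 20763190 in astrocytes, 9752907 to 18598533 in oligodendrocytes, 4145129 to 5612071 in microglia and 30117025 to 37470972 in culture. Levels are given as CPM, each library's counts divided by its total and set to a common size, after scaling for library composition. Each table was scaled on its own, so these CPM values do not compare cell types. The sorted cells carried the markers of their label, although 10 oligodendrocyte lineage markers summed to 14540 to 32857 CPM in the astrocyte sorts beside 20395 to 31172 CPM for 8 astrocyte markers. The fourth 3-month astrocyte library was the most deeply sequenced of the 11 and had the highest level of 9 of the 10 members (all but Hsf1). Its astrocyte marker sum was 20439 CPM against 30040 to 31172 CPM in the other 3-month libraries, and its oligodendrocyte lineage sum of 32857 CPM was the highest of the astrocyte libraries. Values given without this library come from the same fit with it left out. Where groups are said not to overlap, or to lie wholly apart, the share of all tested genes doing so is not given.

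Both HSP90 genes and Hspa8 were the most abundant members in every astrocyte and oligodendrocyte group. On the authors' TPM scale, which corrects for gene length and allows genes to be compared, 3-month astrocytes held Hsp90ab1 at 1951 ± 594 (SD, n = 4), Hspa8 at 893 ± 222 and Hsp90aa1 at 775 ± 236. Hsph1 and Bag3 followed at 102 ± 54.1 and 102 ± 22.9, and Hspa1b, Dnajb1, Hspb1, Hspa1a and Hsf1 lay between 93.6 ± 84.3 and 21.5 ± 1.62. Hsp90ab1, Hspa8 and Hsp90aa1 held the first 3 ranks, in that order, in all 5 astrocyte and oligodendrocyte groups, while the order of the other 7 genes differed between groups and most neighbours lay within each other's SD. In 3-month oligodendrocytes Hsp90ab1 was at 2304 ± 117 TPM (n = 4) and Hspb1, a small heat shock protein that holds unfolding proteins without ATP, was last at 7.25 ± 4.25 TPM.

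In culture, with counts divided by exon length, the same genes led. Vehicle-treated astrocytes held Hsp90ab1 at 501 ± 30.9 CPM per kilobase (SD, n = 3), Hspa8 at 400 ± 22.6 and Hsp90aa1 at 206 ± 13.5. Bag3 followed at 59.5 ± 1.89 and Hspb1 at 41.3 ± 5.69. Hspa1b, Hspa1a and Hsf1 were lowest at 6.12 ± 0.45, 5.59 ± 0.186 and 5.27 ± 0.474. The microglia libraries count 3′ tags, so no length is applied there. Hsp90ab1 had the most tags at 2801 ± 419 CPM (n = 3) at 3 months, and Hsp90aa1 was next at 1577 ± 362. Hspa8 was at 94.6 ± 34.1 CPM, below Hspa1a and Hspa1b, and 44.8% of the 100-base stretches in the last 300 bases of its transcript are shared with other genes.

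**Figure D1:**
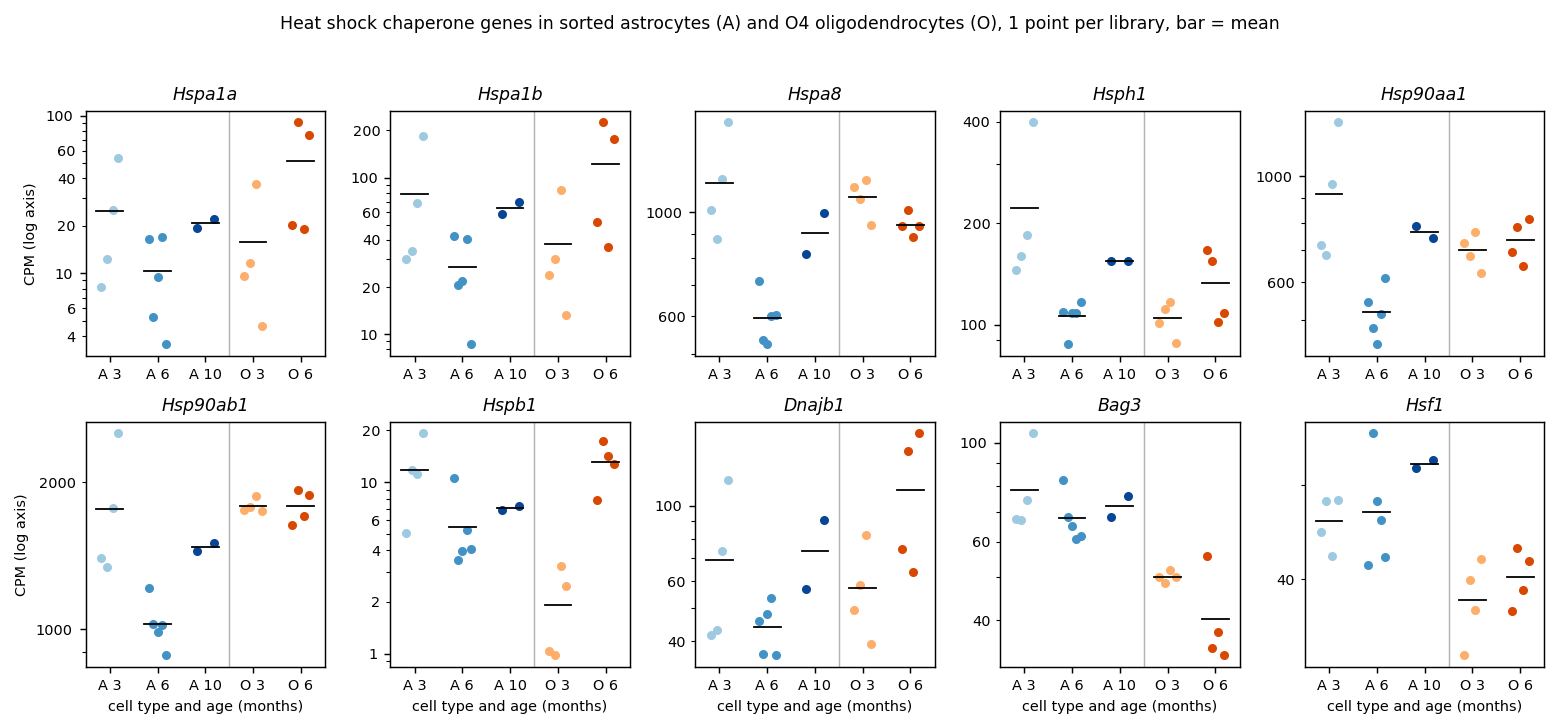
CPM on a log axis of each of the 10 genes in the 11 astrocyte (A) and 8 oligodendrocyte (O) libraries by age in months, with 1 point per library and a bar at the group mean. Each cell type was scaled on its own, so heights are not comparable between A and O. Hspa8, Hsph1, Hsp90aa1 and Hsp90ab1 do not overlap between 3 and 6 months in astrocytes, and Hspb1 does not overlap between 3 and 6 months in oligodendrocytes. The share of all tested genes that do not overlap is not given here.

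Between 3 and 6 months, the abundant chaperone genes fell in astrocytes. Hspa8, Hsp90aa1, Hsp90ab1, Hsph1 and Hspb1 fell, none of the 10 genes rose, and Hsf1 itself stood at 45.9 ± 2.92 CPM (SD, n = 4) and 46.9 ± 6.1 CPM (n = 5). The count of 5 of 10 lower compares with 8.29% of the 16189 genes tested that were lower (6.28% were higher and 14.6% changed in either direction). The median log2 change of the 10 genes was -0.89 and that of all tested genes was 0.00338. With the fourth 3-month library left out 4 members were lower, and these medians were -0.555 and 0.0252. That fit called 1161 of 15954 genes in either direction.

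Hspa8, the constitutive HSP70 that also uncoats clathrin vesicles, was at 1012, 878, 1177 and 1555 CPM in the 3-month libraries and at 713, 534, 523, 601 and 604 CPM at 6 months. Every 6-month library was below every 3-month library. The log2 change was -0.96 ± 0.15 (SE; edgeR quasi-likelihood test with Benjamini-Hochberg adjustment, adjusted p = 0.00109), and -0.76 ± 0.12 without the fourth 3-month library (adjusted p = 0.00393).

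The HSP90 pair moved with it. Hsp90aa1, the stress-inducible form, was at 719, 683, 965 and 1297 CPM at 3 months and at 545, 482, 445, 515 and 614 CPM at 6 months, with no overlap. It changed by -0.82 ± 0.16 on the log2 scale (edgeR, adjusted p = 0.00364), and by -0.58 ± 0.12 without the fourth library (adjusted p = 0.012). Hsp90ab1, the constitutive form, was at 1402, 1345, 1770 and 2523 CPM and then at 1216, 1024, 988, 1022 and 885 CPM, again with no overlap. Its log2 change was -0.78 ± 0.16 (edgeR, adjusted p = 0.00447), and -0.53 ± 0.11 without that library (adjusted p = 0.012).

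Hsph1, an HSP110 protein that exchanges nucleotide on HSP70 and aids disaggregation, was at 145, 160, 185 and 399 CPM at 3 months and at 109, 87.3, 108, 108 and 117 CPM at 6 months. The fourth 3-month library was the highest, and the remaining 3-month libraries were still above all 6-month ones. Hsph1 changed by -1.07 ± 0.26 (edgeR, adjusted p = 0.0193), and by -0.60 ± 0.10 without that library (adjusted p = 0.00471). Its call was lost with no filter on low counts (adjusted p = 0.114).

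Hspb1 was at 5.07, 11.7, 11.1 and 19.3 CPM at 3 months and at 10.6, 3.52, 3.96, 5.27 and 4.05 CPM at 6 months, so the groups overlapped. Its log2 change was -1.19 ± 0.35 (edgeR, adjusted p = 0.0394). Without the fourth 3-month library it was -0.77 ± 0.34 (adjusted p = 0.18), and the call was also lost with DESeq2 (adjusted p = 0.0606) and when any of 6 other libraries was left out. Of 9 fits that left out a library, 2 kept it, those without the first 3-month or the first 6-month library.

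The inducible HSP70 pair varied most. Hspa1a and Hspa1b together were at 38.3, 46.6, 93.9 and 236 CPM at 3 months and at 58.9, 26, 31.4, 57.7 and 12.2 CPM at 6 months. The lower libraries of the 3-month group lay within the 6-month range. Hspa1b had a log2 estimate of -1.59 ± 0.64 (edgeR, adjusted p = 0.138) and Hspa1a of -1.31 ± 0.62 (adjusted p = 0.2), and without the fourth library these were -0.70 ± 0.48 and -0.51 ± 0.50. The estimate for the sum was -1.51 ± 0.64 (adjusted p = 0.158).

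The co-chaperones Dnajb1 and Bag3 did not pass the test. Dnajb1, the J-domain partner induced with Hspa1a, was at 41.8, 43.3, 73.5 and 119 CPM at 3 months and between 36.4 and 53.5 CPM at 6 months, a log2 estimate of -0.66 ± 0.31 (edgeR, adjusted p = 0.178), and -0.23 ± 0.20 without the fourth 3-month library (adjusted p = 0.539). Bag3, which links HSP70 to selective autophagy, had an estimate of -0.23 ± 0.13 (adjusted p = 0.252), and -0.03 ± 0.10 without it (adjusted p = 0.901). Hsf1 had an estimate of 0.03 ± 0.10 (adjusted p = 0.892).

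**Figure D2:**
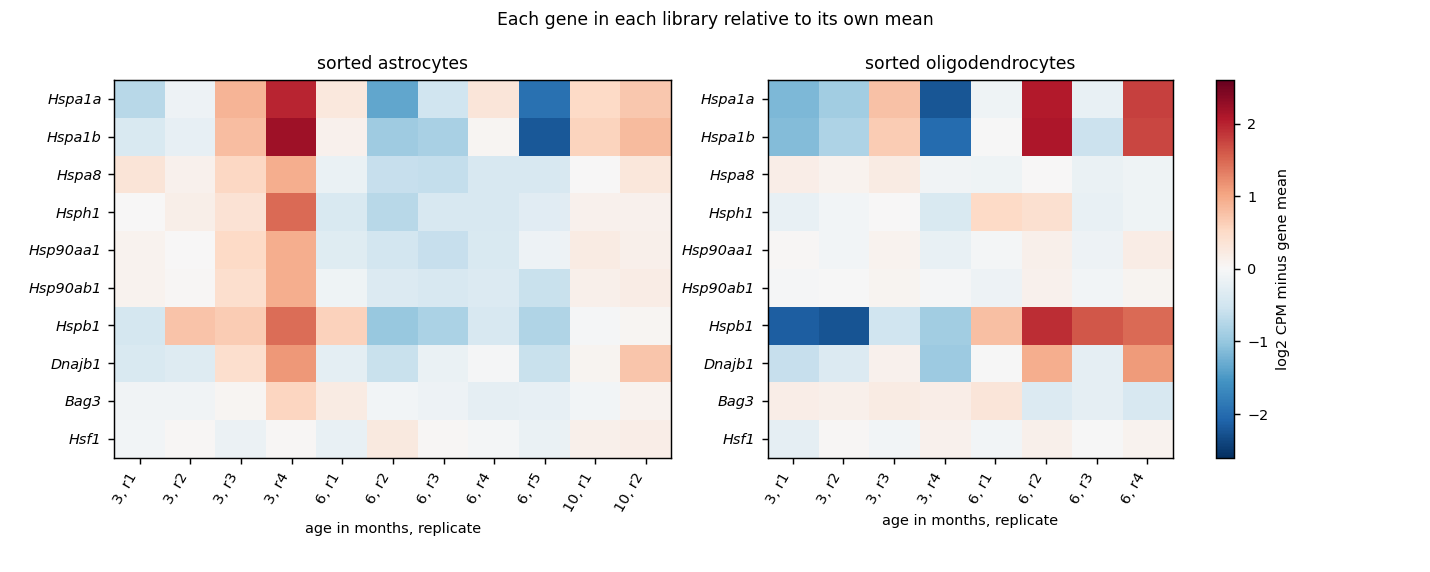
Log2 CPM of each gene in each library minus the mean of that gene over the libraries of its cell type, for 11 astrocyte libraries (left) and 8 oligodendrocyte libraries (right), from blue (below the mean) to red (above the mean). The fourth 3-month astrocyte library is above the mean for all 10 genes or level with it (Hsf1), and replicates 2 and 4 of the 6-month oligodendrocytes are highest for Hspa1a and Hspa1b.

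Other chaperone genes fell in the same astrocyte libraries. Of 15 endoplasmic reticulum chaperones, 11 fell and none rose (median log2 change -0.38), led by Hspa5, the HSP70 of that compartment, at -0.85 ± 0.13 (edgeR, adjusted p = 0.00086), the lectin chaperone Calr at -0.69 ± 0.11 (adjusted p = 0.00126) and Manf at -0.59 ± 0.10 (adjusted p = 0.00228). Of 12 HSP90 co-chaperones, 5 fell and none rose (median -0.20), with Chordc1 at -0.76 ± 0.14 (adjusted p = 0.00322), the ATPase activator Ahsa1 at -0.61 ± 0.14 (adjusted p = 0.00869) and Stip1, the adaptor between HSP70 and HSP90, at -0.65 ± 0.15 (adjusted p = 0.0105). Of 8 subunits of the chaperonin TRiC, 3 fell and none rose (median -0.25).

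Among 8 other HSP70 and HSP110 genes, 2 fell and none rose (median -0.17), Hspa4 by 0.51 and Hspa4l by 0.68 on the log2 scale. Of 5 tested small heat shock proteins, Cryab and Hspb8 fell and Hspb6 rose (median -0.34), with Cryab at -0.90 ± 0.15 (edgeR, adjusted p = 0.00201). In the J-domain list 2 of 12 fell, among nucleotide exchange factors and related HSP70 partners 1 of 8 and in the mitochondrial chaperones 1 of 10 (Hspd1, -0.42 ± 0.13), and none rose. None of the 4 tested heat shock factors and regulators was called. Without the fourth 3-month library 1161 of 15954 genes were called in either direction. In that fit the endoplasmic reticulum list had 6 lower, the HSP90 co-chaperones 3 and TRiC 0, and none of these lists had a gene that was higher. Without that library the other HSP70 and HSP110 genes still had 2 lower, and the J-domain list and the small heat shock proteins had 1 each. The mitochondrial list and the exchange factors had 0.

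Some marker sums moved with these values. Oligodendrocyte lineage markers summed to 21142 to 32857 CPM in the 3-month astrocyte libraries and to 14540 to 22047 CPM at 6 months, and 2 of 10 fell. Choroid plexus markers summed to 222 to 1492 CPM and then to 125 to 283 CPM, and 3 of 5 fell. Endothelial markers summed to 139 to 267 CPM and then to 97.4 to 229 CPM, and 1 of 6 fell. All 4 ependymal markers rose, from a sum of 308 to 425 CPM to one of 424 to 613 CPM, and all 4 erythrocyte markers rose, from 9.64 to 17.5 CPM to 19.4 to 41.5 CPM. Of these, 2 ependymal and 3 erythrocyte markers were called without the fourth 3-month library. Microglia markers summed to 43.7 to 50 CPM and then to 51 to 68.8 CPM, and 1 of 7 tested rose (0 without that library). Immediate early genes (15 tested), a class induced rapidly by many stimuli, tissue dissociation among them, had no call in either direction, and the sum of the list was 1085 to 1306 CPM at 3 months and 940 to 1189 CPM at 6 months. The part of other cells in the fall of the chaperone genes was not tested. In sorted bulk samples, fewer cells of a type and less RNA per cell cannot be told apart.

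At 10 months, with only 2 libraries, no member passed the test against either younger astrocyte group. No member was called against 3 months, where 22.7% of the 16189 genes were called (11.5% higher and 11.2% lower), and none against 6 months, where 0.908% were (0.574% higher and 0.334% lower). At an unadjusted p under 0.05, edgeR passed none of the 10 against 3 months and Hspa8, Hsp90aa1 and Hsp90ab1 against 6 months. The shares of all genes above are at the adjusted threshold, and those at the unadjusted one are not given here. DESeq2 called no member against 3 months and Hspa8 alone against 6 months. Both comparisons share groups with the one above and are given side by side only. The median log2 estimate of the members against 3 months was -0.29, and 0.012 without the fourth 3-month library.

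Hspa8 was at 814 and 995 CPM at 10 months, above the highest 6-month library (713 CPM) and within the 3-month range. Its log2 estimate was -0.35 ± 0.19 against 3 months (edgeR, adjusted p = 0.197) and 0.60 ± 0.18 against 6 months (adjusted p = 0.104). Hsp90aa1 was at 787 and 743 CPM, with estimates of -0.26 ± 0.21 and 0.56 ± 0.19 (adjusted p = 0.389 and 0.156), and Hsp90ab1 at 1445 and 1500 CPM, with -0.26 ± 0.21 and 0.52 ± 0.19 (adjusted p = 0.393 and 0.182). Without the fourth 3-month library the estimates against 3 months were -0.17 ± 0.15 for Hspa8, -0.04 ± 0.15 for Hsp90aa1 and -0.03 ± 0.14 for Hsp90ab1. All 3 genes were above every 6-month library in both 10-month libraries, although none was called. The share of all tested genes with this order of libraries is not given here.

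Hsph1 was at 154 CPM in both 10-month libraries, above the 6-month maximum of 117 CPM, with a log2 estimate against 3 months of -0.54 ± 0.34 (edgeR, adjusted p = 0.285), and -0.08 ± 0.13 without the fourth 3-month library. The sum of Hspa1a and Hspa1b was 78.3 and 91.6 CPM, above every 6-month library and inside the 3-month range, with log2 estimates of -0.31 ± 0.82 against 3 months (edgeR, adjusted p = 0.818) and 1.20 ± 0.77 against 6 months (adjusted p = 0.484). By group mean the sum ran 104 ± 91.8 CPM at 3 months, 85 ± 9.41 at 10 months and 37.2 ± 20.5 at 6 months, and the 2 upper groups did not differ beyond their spread. Without the fourth 3-month library the estimate for the sum against 3 months was 0.52 ± 0.61, of the opposite sign.

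Dnajb1 was at 57 and 90.6 CPM, Bag3 at 68 and 76 CPM, Hspb1 at 6.86 and 7.23 CPM and Hsf1 at 52.1 and 53.1 CPM. Against 3 months the log2 estimates of Dnajb1, Bag3 and Hspb1 were 0.07 ± 0.39, -0.13 ± 0.17 and -0.78 ± 0.46, and without the fourth 3-month library they were 0.49 ± 0.25, 0.05 ± 0.13 and -0.38 ± 0.42. Hsf1 was above all 3-month libraries and within the 6-month range, with a log2 estimate of 0.19 ± 0.12 against 3 months (edgeR, adjusted p = 0.272). Immediate early genes were called more often here: 10 of 15 rose against 3 months (median 0.83), led by Socs3, Junb and Ier2, and 5 of 15 rose against 6 months. Chordc1 was lower than at 3 months (-0.80 ± 0.19, edgeR, adjusted p = 0.00779), the single call among 12 HSP90 co-chaperones. Against 3 months, 2 of 15 endoplasmic reticulum chaperones (Canx and Dnajb9) and 2 of 8 TRiC subunits (Cct6a and Cct4) were also lower and none of either list was higher, and Creld2 was the single endoplasmic reticulum chaperone to rise against 6 months.

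**Figure D3:**
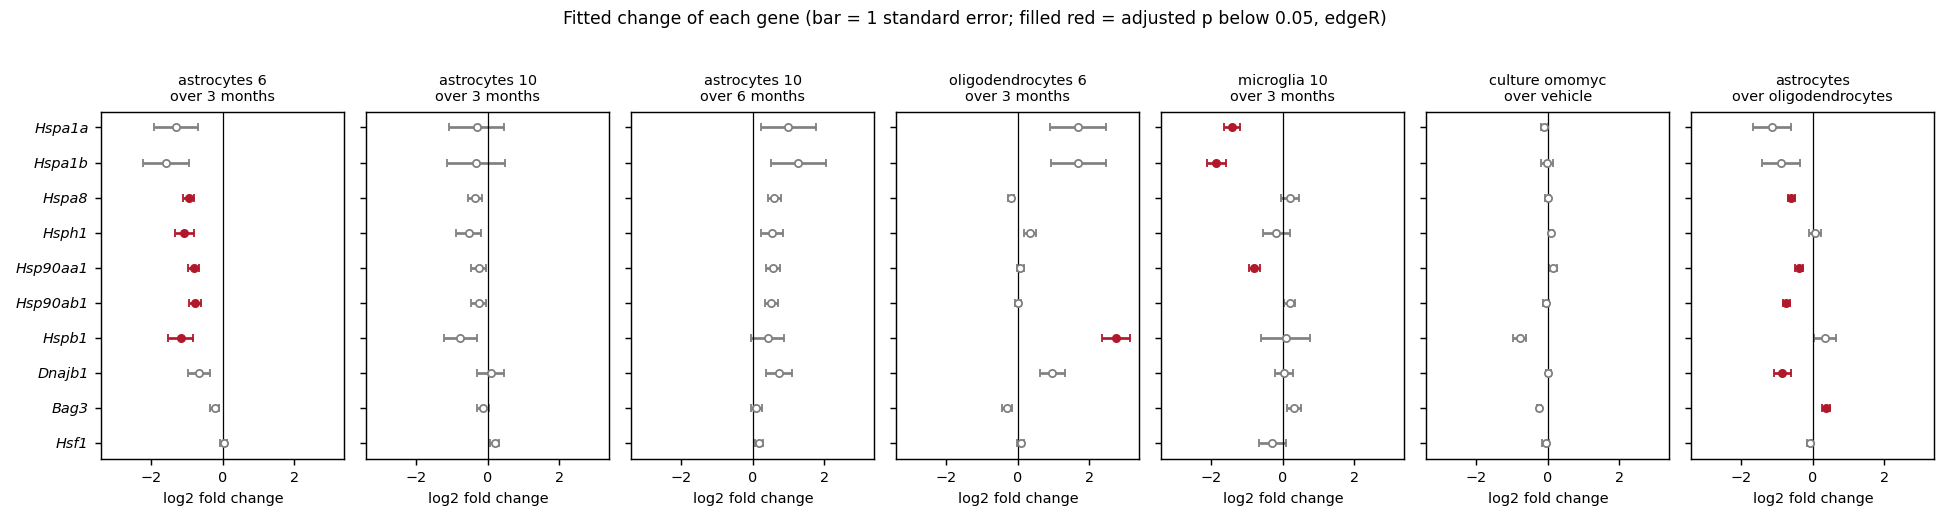
Log2 fold change of each of the 10 genes in 7 comparisons, with bars of 1 SE. Filled red points passed an adjusted p of 0.05 in edgeR, which they did for 5 genes in astrocytes at 6 over 3 months, 1 in oligodendrocytes, 3 in microglia, 0 in culture and 5 between the cell types.

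In O4 oligodendrocytes the 6-month libraries had more Hspb1, and no other member passed the test. That is 1 of 10 higher beside 14.9% of the 14050 tested genes higher (9.46% lower and 24.4% in either direction), a share below the background. The median log2 change was 0.21 for the members and 0.02 for all tested genes.

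Hspb1 was at 1.04, 0.975, 3.22 and 2.47 CPM at 3 months and at 7.85, 17.4, 14.1 and 12.7 CPM at 6 months. Every 6-month library exceeded every 3-month one. The log2 change was 2.75 ± 0.40 (edgeR, adjusted p = 0.00152), and it was 2.51 to 3.15 when each library was left out in turn, with the call kept each time. The 6 endothelial markers also rose, all 6 of 6 (median 2.68): they summed to 48.6, 64.1, 50.6 and 57.3 CPM at 3 months and to 164, 332, 489 and 376 CPM at 6 months. The 6-month library with the least Hspb1 had the lowest endothelial sum, while the one with the most Hspb1 did not have the highest. All 4 tested mural markers rose (median 2.32), from a sum of 33.2 to 61.3 CPM to one of 143 to 330 CPM. Other lists shifted too. Neuron markers summed to 22.7 to 37.9 CPM and then to 42.9 to 83.7 CPM, and 2 of 5 rose. Of 10 oligodendrocyte lineage markers 5 fell and 1 rose (median -0.386), with sums of 71553 to 96016 CPM and then 88957 to 145158 CPM. Choroid plexus markers summed to 36.5 to 901 CPM and then to 291 to 3835 CPM, with no call. Blood vessel cells are known to express Hspb1. The part of any of these shifts in the rise of Hspb1 was not tested.

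Hspa1a and Hspa1b spanned a wide range within each age. Their sum was 33.6, 41.9, 120 and 17.9 CPM at 3 months and 72.4, 317, 55 and 250 CPM at 6 months. The 6-month libraries at 317 and 250 CPM stood above all others, and the remaining 6-month libraries lay within the 3-month range. The log2 estimates were 1.68 ± 0.78 for Hspa1a, 1.69 ± 0.78 for Hspa1b and 1.70 ± 0.78 for the sum (edgeR, adjusted p = 0.166, 0.163 and 0.163). Dnajb1 was high in the same libraries, at 74.4, 144, 63.9 and 163 CPM at 6 months against 49.5, 58.5, 81.8 and 39.3 CPM at 3 months. Its estimate was 0.95 ± 0.35 (edgeR, adjusted p = 0.0847), which DESeq2 called (adjusted p = 0.0115).

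The abundant chaperones had small estimates. Hsp90ab1 was at 1790 ± 58.7 CPM (SD, n = 4) and 1790 ± 142 CPM (n = 4), and Hsp90aa1 at 700 ± 59.5 and 735 ± 76.1 CPM. Hspa8 was at 1076 ± 101 and 941 ± 52.1 CPM, with a log2 estimate of -0.19 ± 0.09 (edgeR, adjusted p = 0.153). Bag3 was tight at 3 months (48.5 to 51.8 CPM) and at 55.6, 34.7, 37.7 and 33.4 CPM at 6 months. Its estimate was -0.31 ± 0.14 (adjusted p = 0.147), and it was -0.51 and called when the first 6-month library was left out (adjusted p = 0.000267). Hsph1 had an estimate of 0.34 ± 0.17 (adjusted p = 0.16) and Hsf1 of 0.08 ± 0.09 (adjusted p = 0.555).

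Elsewhere in the oligodendrocyte chaperone network, 8 of 15 endoplasmic reticulum chaperones fell and Serpinh1, the collagen chaperone, rose (median -0.30). The protein disulphide isomerases Pdia4 and Pdia6 fell by 0.58 and by 0.39 on the log2 scale. Of 8 TRiC subunits 5 fell and none rose (median -0.25), among them Cct7, Cct8 and Cct6a. Hspb8, a small heat shock protein that works with Bag3, rose by 1.92 ± 0.27 (edgeR, adjusted p = 0.00106), Hspa12b, a distant HSP70 known from endothelium, by 2.57 ± 0.29 (adjusted p = 0.000363) and the heat shock factor Hsf4 by 2.43 ± 0.45 (adjusted p = 0.00364). None of 12 HSP90 co-chaperones and none of 12 J-domain genes was called. Of 15 immediate early genes 12 rose and Rhob fell.

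**Figure D4:**
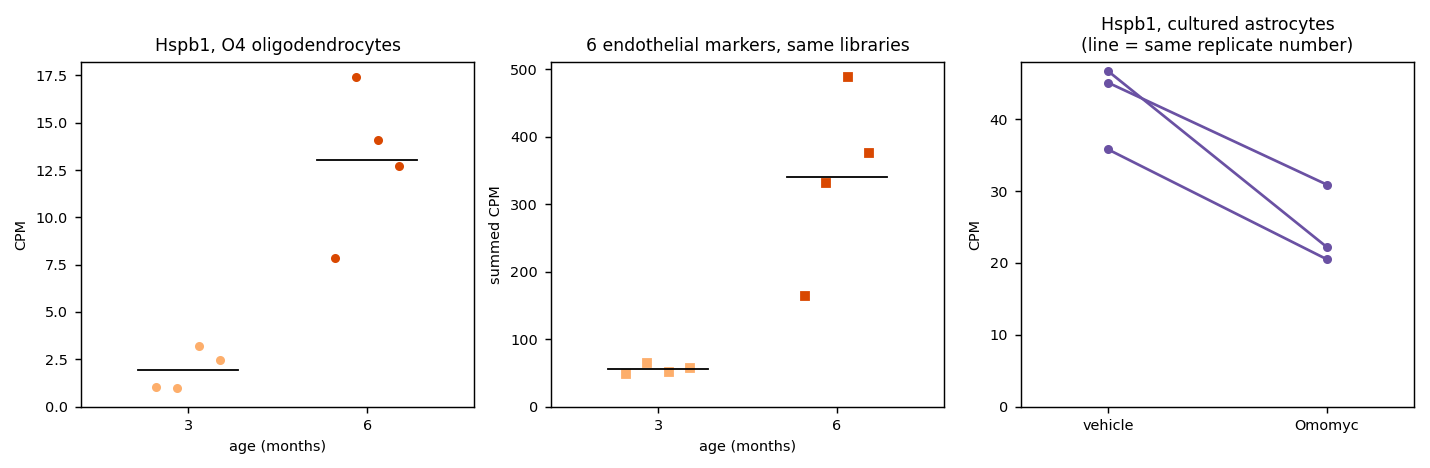
Left, Hspb1 in CPM in 8 oligodendrocyte libraries, 1.04, 0.975, 3.22 and 2.47 at 3 months and 7.85, 17.4, 14.1 and 12.7 at 6 months, with a bar at the mean; middle, the summed CPM of 6 endothelial markers in the same libraries. Right, Hspb1 in 3 vehicle and 3 Omomyc cultures, with a line joining equal replicate numbers, lower with Omomyc in each of the 3 pairs.

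The age effect differed between astrocytes and oligodendrocytes for 6 of 10 members. All 6 had the more negative change in astrocytes, where 9.97% of the 16363 genes tested were called in that direction (6.44% in the other and 16.4% in either). The median difference in log2 change was -1.06 for the members and 0.017 for all tested genes. Hspb1 differed by -3.83 ± 0.59 (edgeR interaction test, adjusted p = 0.000383), Hsph1 by -1.32 ± 0.35 (adjusted p = 0.0162) and Hsp90aa1 by -0.80 ± 0.22 (adjusted p = 0.0155). Hspa8 differed by -0.67 ± 0.19 (adjusted p = 0.0209), Hsp90ab1 by -0.69 ± 0.21 (adjusted p = 0.0272) and Dnajb1 by -1.52 ± 0.49 (adjusted p = 0.0488).

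The call for Dnajb1 was lost in 12 of 17 fits that left out a library, and that for Hsp90ab1 in 3 of 17 (replicate 4 of the 3-month astrocytes, replicate 1 of the 3-month and replicate 2 of the 6-month oligodendrocytes). Without the fourth 3-month astrocyte library 4 members were called, beside 2245 of 16712 genes called in either direction. Hsp90ab1 at -0.47 ± 0.16 (edgeR, adjusted p = 0.0537) and Dnajb1 at -1.12 ± 0.45 (adjusted p = 0.119) were not called. Hsph1 was, at -0.89 ± 0.21 (adjusted p = 0.00844). The sum of Hspa1a and Hspa1b had an estimate of -3.1 ± 1.07 (adjusted p = 0.0645), and Bag3 and Hsf1 had 0.18 ± 0.21 and 0.04 ± 0.14. Without that library the estimates were -2.29 ± 1.02 for the sum (adjusted p = 0.166) and 0.34 ± 0.18 for Bag3 (adjusted p = 0.239), and the median over the members was -0.739. Markers of some other cells differed in the same direction. All 6 endothelial (median -3.34), all 5 mural (median -2.17), 4 of 5 choroid plexus (median -4.51) and 2 of 5 neuron markers (median -1.34) were called. So were 6 of 15 immediate early genes (median -0.76). Of 8 microglia markers 3 were called in the other direction (median 0.849). Ependymal, erythrocyte and border macrophage markers had medians of 0.753, 0.522 and 0.533 and no call. The part of these shifts in the differences of the chaperone genes was not tested.

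Averaged over 3 and 6 months, 4 members were lower in astrocytes than in oligodendrocytes and Bag3 was higher. In this comparison 74.6% of the 16363 genes tested were called (35.9% lower, 38.7% higher), and 5 of 10 is a share below that background. Hsp90ab1 differed by -0.74 ± 0.10 (edgeR, adjusted p = 1.54e-06), Hspa8 by -0.61 ± 0.10 (adjusted p = 8.48e-06), Hsp90aa1 by -0.38 ± 0.11 (adjusted p = 0.00325) and Dnajb1 by -0.85 ± 0.25 (adjusted p = 0.00584). Bag3 differed by 0.37 ± 0.10 (adjusted p = 0.00307). In CPM from a fit of both tables together, the ranges of all 10 members over both ages overlapped between the cell types. Those ranges include the fourth 3-month astrocyte library. Bag3 was at 86.6 to 136 TPM in astrocytes and 72.5 to 80 TPM in oligodendrocytes at 3 months. At 6 months it was at 86.4 to 116 and 41.9 to 77.1 TPM, and Hsp90ab1 at 1054 to 1458 and 1939 to 2034 TPM. Hspb1 overlapped at 6 months (12.3 to 37.1 and 27 to 52.3 TPM). All 4 lower genes had an age effect that differed between the cell types, so the average joins unlike ages. At 3 months Hsp90aa1 was at 775 ± 236 TPM (SD) in astrocytes and 688 ± 69.8 in oligodendrocytes. At 6 months it was at 485 ± 47.5 and 622 ± 37.4. In the same order Dnajb1 was at 72 ± 37.2 and 69.3 ± 23.2 TPM, then at 50.8 ± 9.71 and 114 ± 45.2. The means of Hsp90ab1 and Hspa8 were lower in astrocytes at both ages.

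Hspa1a had an estimate of -1.14 ± 0.53 (adjusted p = 0.0657) and Hspa1b of -0.89 ± 0.53 (adjusted p = 0.141), and both were called, at -1.52 ± 0.54 and -1.31 ± 0.52, when the fourth 3-month astrocyte library was left out (adjusted p = 0.0221 and 0.0348). Their sum had an estimate of -0.96 ± 0.53 (adjusted p = 0.114), and -1.37 ± 0.52 without that library (adjusted p = 0.0307). All 8 TRiC subunits were lower in astrocytes (median -0.29), as were 6 of 12 HSP90 co-chaperones and none higher (median -0.34), among them Cdc37 and Fkbp4. All 15 tested immediate early genes were lower in astrocytes (median -1.64). Hsf2, a second heat shock factor, was higher in astrocytes by 0.82 ± 0.08 (edgeR, adjusted p = 1.77e-08), whereas Hsf1 had an estimate of -0.08 ± 0.07 (adjusted p = 0.276).

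In microglia the inducible HSP70 genes and the inducible HSP90 gene fell between 3 and 10 months, and the other 7 members did not pass the test. The 3 of 10 lower compare with 1.27% of the 12320 genes tested that were lower (1.94% higher and 3.21% in either direction). The median log2 change was -0.08 for the members and 0.00466 for all tested genes.

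Hspa1b was at 172, 212 and 86.9 CPM at 3 months and at 38.7, 58.9, 27.5 and 47.8 CPM at 10 months. It changed by -1.86 ± 0.28 on the log2 scale (edgeR, adjusted p = 0.00431). Hspa1a was at 140, 171 and 78.6 CPM and then at 60.3, 44.8, 40.9 and 46.4 CPM, a change of -1.43 ± 0.22 (adjusted p = 0.00431). Neither gene overlapped between the ages, and the third 3-month library was the lowest of its group for both. As a sum they changed by -1.65 ± 0.22 (adjusted p = 0.00255).

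Hsp90aa1 was at 1523, 1962 and 1244 CPM at 3 months and at 1039, 875, 1008 and 704 CPM at 10 months, with no overlap and a log2 change of -0.80 ± 0.16 (edgeR, adjusted p = 0.0143). Its near relative Hsp90ab1 was at 2618, 3280 and 2504 CPM and at 3836, 2760, 2621 and 3547 CPM, with an estimate of 0.19 ± 0.14 (adjusted p = 0.563). The 3 calls were kept under every other setting tried and when each of the 7 libraries was left out in turn, the weakest being Hsp90aa1 at an adjusted p of 0.048.

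Dnajb1 and Hsph1, which share inducibility with Hspa1a, varied within the 3-month group. Dnajb1 was at 67.6, 89.8 and 34.7 CPM at 3 months and between 56.1 and 75 CPM at 10 months, an estimate of 0.02 ± 0.25 (edgeR, adjusted p = 0.979). Hsph1 was at 34.8, 59.5 and 10.9 CPM and then between 23.8 and 38.5 CPM (-0.18 ± 0.39, adjusted p = 0.866). The third library was again the lowest for both. Bag3 had an estimate of 0.30 ± 0.20 (adjusted p = 0.487), Hspa8 of 0.20 ± 0.24 (adjusted p = 0.739) and Hsf1 of -0.30 ± 0.37 (adjusted p = 0.749). Hspb1 was under 8 CPM in each library, between 1.99 and 7 CPM.

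**Figure D5:**
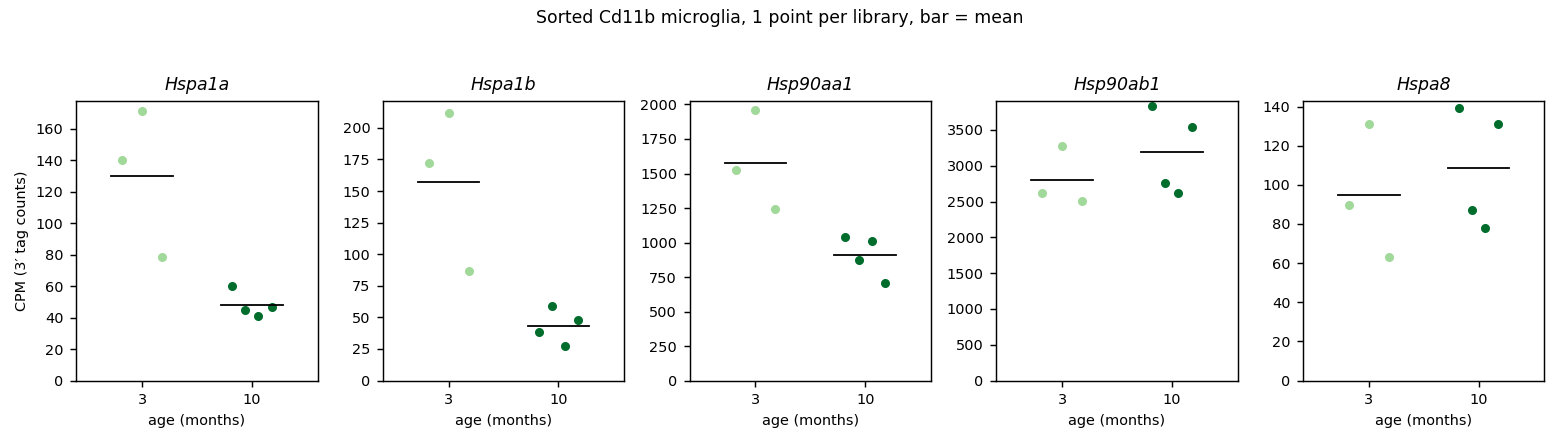
CPM of Hspa1a, Hspa1b, Hsp90aa1, Hsp90ab1 and Hspa8 in 3 microglia libraries of 3 months and 4 of 10 months, with 1 point per library, a bar at the mean and axes from 0. The first 3 genes do not overlap between the ages and the last 2 do. The share of all tested genes that do not overlap is not given here.

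Few other chaperone genes moved in microglia. Of 14 tested endoplasmic reticulum chaperones Pdia4 and Calr rose, by 0.85 ± 0.19 and 0.57 ± 0.13 (edgeR, adjusted p = 0.0226 and 0.0299), and none fell. Of 12 HSP90 co-chaperones Cdc37, which loads kinases onto HSP90, rose by 0.79 ± 0.17 (adjusted p = 0.0227), and of 12 J-domain genes Dnajc8 rose by 0.50 ± 0.13 (adjusted p = 0.0455). No member of the TRiC, mitochondrial or other HSP70 lists was called. Of 16 immediate early genes 3 fell and none rose: Nr4a1 by 2.53, Zfp36 by 0.69 and Atf3 by 0.58 on the log2 scale, and the list summed to 13025 to 15322 CPM at 3 months and 10535 to 13365 CPM at 10 months. Microglia markers summed to 24275 to 29743 CPM and then to 31445 to 42809 CPM, and endothelial markers to 48.9 to 57.8 CPM and then to 82.9 to 100 CPM. Gene detection also separated by age. The 3-month libraries detected 15049, 13545 and 14674 genes, fewer than every 10-month library (16030, 16181, 16575 and 16596). One gene alone made up 17.9 to 27% of each microglia library's total, and this share overlapped between the ages. The part of these marker shifts, or of gene detection, in the fall of Hspa1a, Hspa1b and Hsp90aa1 was not tested. Choroid plexus markers varied within both ages, with sums of 284 to 2492 CPM and 76 to 2943 CPM.

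In cultured astrocytes Hspb1 was lower with Omomyc in the paired fit, and no other member passed a test in either fit. None of the 10 was called by the fit with 1 mean per treatment, in which 3 of 16119 genes (0.0186%) were called. At an unadjusted p under 0.05 that fit passed Hspb1 and Bag3, and the share of all genes at this threshold is not given here. Samples with the same replicate number deviated together in all 3 pairs, and with that number as a block 4.07% of genes were called, 2.23% higher and 1.84% lower, among them Hspb1 as the only member.

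Hspb1 was at 35.8, 46.7 and 45.1 CPM with vehicle and at 20.5, 22.2 and 30.9 CPM with Omomyc, lower in each of the 3 pairs and with no overlap. The log2 change was -0.79 ± 0.18 without the block (edgeR, adjusted p = 0.524) and -0.80 ± 0.10 with the replicate block (adjusted p = 0.00568). DESeq2 also called it (adjusted p = 0.0151). Bag3 was at 150, 158 and 150 CPM with vehicle and at 124, 128 and 134 CPM with Omomyc, again with no overlap. Its estimates were -0.25 ± 0.07 (edgeR, adjusted p = 0.589) and -0.25 ± 0.06 with the block (adjusted p = 0.0544).

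The 8 other members had estimates between -0.10 and 0.14. Hspa1a and Hspa1b together were at 32.4, 35 and 33.8 CPM with vehicle and at 28.8, 30 and 38.1 CPM with Omomyc, and the estimate for the sum was -0.06 ± 0.12 (edgeR, adjusted p = 0.943). Hspa8 was at 1722 ± 97.1 CPM (SD, n = 3) and 1712 ± 19.3 CPM (n = 3), and Hsp90ab1 at 1501 ± 92.6 and 1454 ± 34.9 CPM. Hsp90aa1 was at 811 ± 53.1 and 896 ± 85.5 CPM, with an estimate of 0.14 ± 0.10 (adjusted p = 0.845), and Dnajb1 at 45.4 ± 2.12 and 45.8 ± 1.3 CPM. In the fit without the block none of the genes tested in the other chaperone lists or in the immediate early list was called. With the replicate block 3 of 5 other small heat shock proteins fell, Hspb8 by 0.56, Cryab by 0.43 and Hspb6 by 0.39 on the log2 scale (edgeR, adjusted p = 0.0102, 0.0234 and 0.0183), and Hspa4l rose by 0.34 ± 0.07 (adjusted p = 0.0372). The remaining 7 chaperone lists had no call with the block. Of 16 immediate early genes 4 fell with the block (Socs3, Junb, Klf2 and Atf3) and none rose. Of 8 microglia markers 5 rose with the block, with sums of 1476 to 2601 CPM with vehicle and 1700 to 3285 CPM with Omomyc. Mural markers summed to 2930 to 3892 CPM with vehicle and 2646 to 3067 CPM with Omomyc, and none of 3 tested was called. The astrocyte marker Slc1a2, the oligodendrocyte lineage marker Mbp and the endothelial marker Flt1 also rose with the block. The part of these shifts in the fall of Hspb1 was not tested.

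The genes whose log2 CPM followed the sum of Hspa1a and Hspa1b most closely across libraries are given for each sorted cell type. These correlations are descriptions over few libraries that share age groups and sorts. Whether the ranks differ between cell types was not tested. The astrocyte values include the fourth 3-month library, at 236 CPM for the sum against 12.2 to 93.9 CPM in the others, and values without it are not given. Over 8 oligodendrocyte libraries Dnajb1 ranked first of 14048 genes (Pearson r = 0.982), followed by Adgrl1, Gm48249 and Ccnt2 (r = 0.959 to 0.97). Over 11 astrocyte libraries Ankrd11 was first (r = 0.96), followed by Plod3, Fkbp4, an HSP90 co-chaperone (r = 0.928), Kazn and Bfsp2, while Dnajb1 ranked 16 (r = 0.899) and Hsp90ab1 21 (r = 0.894) of 16187 genes. Over 7 microglia libraries Cntrl, Dyrk2, Gdi2, Inpp5k and Relch led (r = 0.978 to 0.991), Hsp90aa1 ranked 190 of 12318 (r = 0.878) and Dnajb1 4010 (r = 0.255). Hsf1 was at r = 0.121, 0.369 and -0.106 in astrocytes, oligodendrocytes and microglia.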

How the data were processed

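Members and gene lists were chosen with earlier results of these data known. The authors deposited raw counts per gene for 32 libraries, and TPM for astrocytes and oligodendrocytes. TPM values deposited by the authors were used only to compare genes and to set some members side by side between cell types. Per the labels' protocols, kits that add molecular identifiers to poly(A) RNA served for astrocytes, oligodendrocytes and cultures, and a 3′ tag kit served for microglia. featureCounts 2.0.1, DESeq2, UMI-tools 1.0.1, STAR 2.7.7a and fastp appear in the submitters' processing notes. The build of each table was not given in the sources used here. Microglia and culture identifiers were matched to GENCODE vM21 symbols (52093 of 53700 and 17559 of 17572).

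Each table was fitted in edgeR 4.0.16 (R 4.3.3): TMM scaling, filterByExpr with a minimum count of 10, robust quasi-likelihood F test (two-sided), 1 mean per group, Benjamini-Hochberg adjusted p under 0.05 over all tested genes. Oligodendrocyte and astrocyte libraries of 3 and 6 months shared a joint fit. The procedure was tested on simulated counts. Culture replicate numbers were taken as pairs because deviations from group means correlated within every pair (r = 0.628, 0.432 and 0.682), while other tables' pairs did not all exceed 0.1. All members are named; from each other list, counts and up to 3 called genes of smallest p. Some items that this rule or the likeness ranking names are not reported here. The other settings tried were DESeq2 1.42.0, RLE scaling, no filter, the replicate block, leaving out each library, and summing Hspa1a with Hspa1b.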

Additional observations from a re-analysis of the deposited data

Results flagged for a closer look

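In 50 sets of values (10 genes in 5 groups of 4 or 5 libraries) 2 held a library far from the rest, and chance alone marks about 1 set in 20. Hsph1 was at 399 CPM in the fourth 3-month astrocyte library against 145 to 185 CPM in the other 3. Hspb1 was at 10.6 CPM in the first 6-month astrocyte library against 3.52 to 5.27 CPM in the other 4.

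The change from 3 to 6 months differed between astrocytes and oligodendrocytes for 6 members by the edgeR interaction test. All 6 were more negative in astrocytes, as were 9.97% of the 16363 genes tested. Without the fourth 3-month astrocyte library the same test no longer called Hsp90ab1 (adjusted p = 0.0537) or Dnajb1 (adjusted p = 0.119). The differences in log2 change, astrocytes minus oligodendrocytes, were -3.83 for Hspb1, -0.80 for Hsp90aa1, -1.32 for Hsph1, -0.67 for Hspa8, -0.69 for Hsp90ab1 and -1.52 for Dnajb1. In the oligodendrocyte sorts the endothelial marker sum rose from 48.6 to 64.1 CPM to 164 to 489 CPM over the same ages, and in the astrocyte sorts it was 139 to 267 CPM and then 97.4 to 229 CPM.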

How the results depend on the processing

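Of 1231 estimates for single members under other settings, 1174 kept their direction or stayed uncalled, 29 lost a call, 28 gained one and none reversed a call. A further count lies within the first: 46 estimates, uncalled in both settings and from 20 results, changed sign, with sizes of at most 0.326 in the main fits. The cause of each change below was not tested. Members called moved as follows. At 10 over 6 months in astrocytes 0 became 3 with no filter and 1 with DESeq2. In oligodendrocytes 1 became 4 with no filter and 2 with DESeq2, and was 1 to 2 when each library was left out. The main oligodendrocyte fit called 24.4% of all genes. The shares with no filter and with DESeq2 are not given here, so these member counts cannot be set against a background. In culture 0 became 1 with DESeq2 and with the replicate block.

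All genes called moved too. At 10 over 6 months in astrocytes 147 became 578 with no filter, 609 with DESeq2 and 56 with the replicate block, and was 11 to 320 when each library was left out. In microglia 395 became 730, 748 and 211, and 51 to 396. In culture 3 became 97 with DESeq2 and 656 with the replicate block, and 0 to 1. Leaving out each library gave 1161 to 2637 at 6 over 3 months and 1052 to 3713 at 10 over 3 months in astrocytes, and 2214 to 4925 in oligodendrocytes. The replicate block ended the calls of Hspb1 at 6 over 3 months in astrocytes (adjusted p = 0.168), and of Dnajb1 and Hsp90ab1 in the interaction (adjusted p = 0.107 and 0.0586), where numbers do not pair the libraries. RLE scaling changed no member's call. Where a library of the 10-month pair was left out, the lone sample was assumed to vary like the other groups.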
